A study of Caenorhabditis elegans with 5 samples.

Results

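Nascent RNA in young adult C. elegans that lack the H3K9 methyltransferases MET-2 and SET-25 was compared with that in wild type (WT), window by window across the genome. The comparison used 2 of the 5 libraries of the series, WT (N2) and met-2(n4256);set-25(ok5021), with 1 library of each genotype. The other 3 libraries, hrde-1 (tm-1200), set-32(ok1457) and a triple mutant that joins the set-32 allele with those of met-2 and set-25, are given beside them where they carry a value for the same window. Whole animals were grown at 19 °C with OP50 bacteria as food. RNA was taken from chromatin fragments bound by an antibody to the serine 2-phosphorylated form of RNA polymerase II, which is found on transcribed gene bodies, and this assay is called pre-mRNA-seq. Values are RPKM (reads scaled by window length and sequencing depth) in windows of 1 kb on ce6 (WS190). The table held 100270 windows, and 99764 remained after 506 windows that the authors marked as misannotated were left out.

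Trimethylation of histone H3 at lysine 9 (H3K9me3) is a mark of heterochromatin, the compact and mostly silent part of the genome, and in C. elegans it is found mainly at repeats, transposons and silenced genes. MET-2 adds the first methyl groups to H3K9, and SET-25 carries the mark on to trimethylation. SET-32 is another SET-domain protein needed for H3K9me3 at some targets of small RNAs, and HRDE-1 is the germline Argonaute protein of the nuclear RNAi pathway. The comparison asks which parts of the genome carry more or less elongating polymerase RNA when the methyltransferases MET-2 and SET-25 are absent.

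Each genotype has 1 library, so nothing can be checked between replicates, no p-value is given, and each difference is one between these libraries. In whole animals, fewer cells that transcribe a window and less RNA per cell cannot be told apart. The values are steps of whole reads, from which 1096416 (WT) and 670027 (met-2 set-25) reads were recovered, against 323825 to 678659 in the other libraries. For a value of 20 RPKM this means 21.9 WT reads but only 13.4 met-2 set-25 reads. By their library codes, set-32 and the triple mutant were made in another library set than the rest. The rRNA gene windows, I 15060001 to 15073000, took 4.68% of the WT and 5.80% of the met-2 set-25 RPKM, but 28.2% in set-32 and 37.8% in the triple mutant. RPKM is scaled to the reads of the whole library, so these larger shares lower the deposited values of all other windows in set-32 and the triple mutant. Values are given as deposited unless another scaling is named. The mutated genes themselves could not be placed on ce6 from the sources used here, so the genotype labels were not checked against them. The only window at 0 in both strains without met-2 and set-25 and at 15 RPKM or more in each of the 3 others was III 13288001 to 13289000. It had 45.6 RPKM in WT, 35.4 in hrde-1 and 28.8 in set-32. Whether this window lies in a deletion was not tested.

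Over the genome as a whole, the mutant was close to WT. Of the kept windows, 36921 (37.0%) had a mean of both libraries of at least 5 RPKM and were used for medians. The median ratio of met-2 set-25 to WT, after 1 RPKM was added to each value, was 1.01 (1.00 to 1.02). The interval of a median is here the exact 95% binomial interval over windows, a description of spread, since windows are not replicates. The summed RPKM outside the rRNA genes had a ratio of 0.987 (95% counting interval 0.984 to 0.990, which covers counting error only). Single windows varied much more, with a middle 90% of ratios from 0.44 to 2.69. Part of that width is counting noise. At a mean of 5 to 10 RPKM the spread of log2 ratios (a robust SD from percentiles) was 0.95, where counting alone would give 0.83, and at 50 RPKM and over it was 0.55, where counting would give 0.26. The same quantities for hrde-1 against WT, which shares the WT library, were 0.91 and 0.47.

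Calls took a ratio of 2 or more (higher) or 0.5 or less (lower), with 20 RPKM or more in either library. By this rule 1188 of 16305 windows (7.29%) were higher and 1255 (7.7%) were lower in met-2 set-25. The windows called higher had a median of 10.9 RPKM in WT and 29.9 in met-2 set-25, and those called lower had 32.8 and 12.7 RPKM. The median ratio of hrde-1 to the same WT library was 1.29 at the windows called higher and 0.680 at those called lower. Over all windows that could be called it was 0.871. The calls were thus shared in part with hrde-1, and how much of them comes from the WT library was not tested. The balance of the calls depended on the scaling. As deposited, 48.6% of calls were higher. This share was 51.1% after scaling to the total outside the rRNA genes, 45.4% after scaling to a trimmed mean of the tested windows, and 24.8% after scaling to a trimmed mean of all windows above 0 in both libraries. The factor of that last scaling, 0.891, is -0.17 on the log2 scale.

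The windows with the most H3K9me3 in WT gave less nascent RNA in the mutant. The deposited table sorts the windows into tiers 1 to 8. The sources used here do not define the tiers, and they were read as classes of WT H3K9me3, with tier 1 the highest, because 99.0% of the 100 windows in tier 1, 96.1% of 891 in tier 2 and 38.0% of 4040 in tier 3 are marked as having lost H3K9me3 in both replicates of met-2 set-25, against 0.636% in tier 4 and none in tiers 5 to 7. The median ratio was 0.619 (0.544 to 0.689) over 61 tested windows of tier 1, 0.728 (0.678 to 0.777) over 332 of tier 2 and 0.908 (0.881 to 0.943) over 1195 of tier 3. The median level was 25.5 RPKM in WT and 11.9 in met-2 set-25 in tier 1, and 17.3 and 11.9 RPKM in tier 2. In tier 1, 16.4% of the tested windows had a ratio above 1, and in tier 2 26.5%.

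Further down the order of tiers the ratio passed 1 and then came back. It was 1.02 (0.99 to 1.04) in tier 4, 1.15 (1.13 to 1.17) in tier 5, 1.12 (1.10 to 1.15) in tier 6 and 0.961 (0.956 to 0.969) in tier 7. Tier 7 held 18344 of the 36921 tested windows, the most of any tier. The ratio of summed RPKM, which takes in windows of every level, had the same order, with 0.677 (0.629 to 0.729) in tier 1, 0.740 (0.716 to 0.766) in tier 2, 0.918 (0.903 to 0.934) in tier 3, 1.14 in tier 5 and 0.931 in tier 7. Tiers 1 to 3 together had a median of 0.848 (0.833 to 0.881) and tiers 4 to 7 a median of 1.02 (1.01 to 1.02). Where only windows whose values were whole reads in both libraries were used, the median of tier 3 was 0.940 and its summed ratio was 1.03, on the other side of 1. The cause of that change was not tested. Tier 8 held 13 windows, all in the rRNA genes, and their median ratio was 1.23 (1.21 to 1.44).

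**Figure D1:**
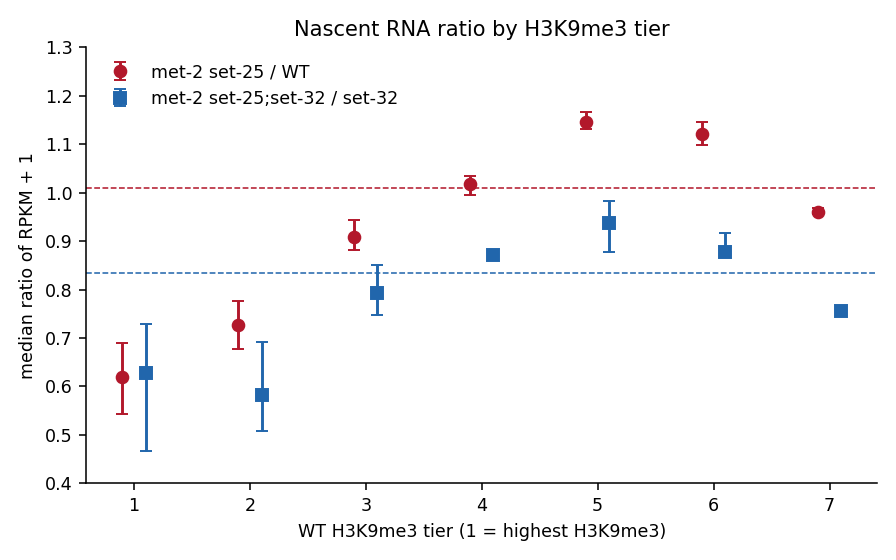
Median ratio of RPKM + 1 (vertical axis) by tier of WT H3K9me3 (horizontal axis, tier 1 highest), for met-2 set-25 over WT (circles) and the triple mutant over set-32 (squares). Bars are exact binomial intervals over windows and dashed lines the medians of all tested windows. The met-2 set-25 ratio runs from 0.619 in tier 1 to 1.15 in tier 5 and is 0.961 in tier 7.

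The lower calls followed the same order. In tier 1, 12 of 38 callable windows were lower and 0 were higher. In tier 2, 52 of 161 (32.3%) were lower and 6 (3.73%) higher, against a background of 7.7% lower and 7.29% higher. In tier 3 the shares were 17.3% lower and 7.58% higher. Tiers 5 and 6 had the reverse excess over that background, with 251 of 1675 and 277 of 2227 callable windows higher, and 8.66% and 7.05% lower. The background was not matched for level, and a window below 20 RPKM in 1 library can be called only through the other. Of callable windows at a mean of 10 to 20 RPKM, 18.9% were higher and 15.7% lower. At 50 RPKM and over these shares were 2.94% and 5.49%. The tested windows of tiers 5 and 6 had medians of 10.0 and 10.9 RPKM in WT. Of all callable windows, 4.14% lay in tiers 1 to 3, and these tiers held 11.6% of the windows called lower and 3.54% of those called higher. Few of the calls therefore lay in the strongly methylated windows. Tier 7 held 48.7% of the windows called lower, less than its 60.2% of all callable windows, and 6.23% of its own callable windows were lower.

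The order of the tiers was then read at matched level, because the ratio also varied with level. At a mean of 20 to 50 RPKM the median was 0.617 in tier 1 (18 windows), 0.634 in tier 2, 0.877 in tier 3, 0.934 in tier 4, 1.04 in tier 5, 1.01 in tier 6 and 0.928 in tier 7. At 10 to 20 RPKM tiers 1, 2 and 3 had 0.472 (13 windows), 0.774 and 0.913, and tiers 5 and 7 had 1.16 and 1.01. The order was less clear among the windows with the most transcription. At 50 RPKM and over tier 1 had 0.690 (13 windows, 0.631 to 0.999), tier 2 had 0.867 (29 windows, 0.678 to 1.02) and tier 3 had 0.982. Tier 7 had 0.835, a value inside the intervals of tiers 1 and 2.

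**Figure D2:**
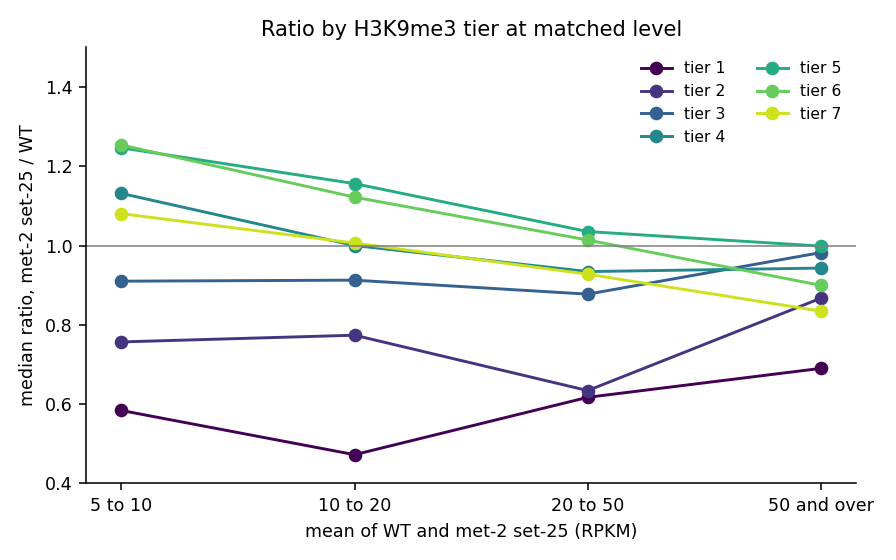
Median ratio of met-2 set-25 to WT (vertical axis) by the mean level of both libraries in RPKM (horizontal axis), with 1 line per H3K9me3 tier and no error bars. Tiers 1 and 2 lie lowest at 5 to 50 RPKM, with 0.617 and 0.634 at 20 to 50 RPKM, and tier 2 stands above tier 7 at 50 RPKM and over.

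The order of the tiers was the same without the native targets of nuclear RNAi. The table marks GRTS windows, which germline nuclear RNAi silences at transcription, and GRH windows, which need it for H3K9me3, 381 windows in all. Without them, the median ratio was 0.618 in tier 1 (46 windows), 0.756 in tier 2 (281) and 0.933 in tier 3 (1085). Without the 2 longest runs of lower windows, described further on, the medians were 0.619, 0.755 and 0.912. Windows in GRTS alone, in GRH alone and in both lists had 0.754, 0.709 and 0.611, and the same lists in hrde-1 against the same WT library had 3.90, 1.24 and 4.66. The lists were drawn by the study's authors from earlier hrde-1 work.

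The windows marked by the authors as having lost H3K9me3 in met-2 set-25 gave a narrower view of the same windows. Outside the rRNA genes, the median ratio was 0.828 (0.800 to 0.855) over 1095 tested windows marked in both replicates, 0.961 (0.892 to 1.04) over 432 marked in 1 replicate and 1.02 (1.01 to 1.02) over 35381 marked in neither. Of the callable windows marked in both, 20.5% were lower and 4.70% higher, against a background of 7.7% lower and 7.29% higher that was not matched for level. Windows marked in both replicates of met-2 set-25 and also in both of set-32 had 0.726 (0.675 to 0.776, 378 windows), and 34.1% of the callable ones were lower. Those not marked so in set-32 had 0.866 (0.836 to 0.902, 717 windows), with 13.6% lower.

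Within a single tier the loss mark separated the windows less. In tier 3 the median was 0.944 (0.872 to 0.990) with no mark, 0.926 (0.858 to 1.05) with 1 and 0.891 (0.841 to 0.930) with both, and these intervals overlap. In tier 4 the values were 1.02, 0.983 and 0.892 (0.823 to 0.999). Tiers 1 and 2 hold too few unmarked windows to be split. The mark and the tier thus covered much the same windows, and which of them the ratio follows was not tested.

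The ratio also ran with the level of transcription. Sorted by WT level, the median was 1.17 at 5 to 10 RPKM, 0.964 at 10 to 20, 0.860 at 20 to 50, 0.784 at 50 to 100 and 0.762 above 100 RPKM. The WT value is part of the ratio, so chance differences in WT alone give such a slope. Sorted instead by the hrde-1 library, which is not part of the ratio, the slope was shallower and went the same way. Windows at 2 to 5 RPKM in hrde-1 had a median of 1.25, those at 5 to 10 RPKM 1.11, those at 10 to 20 RPKM 1.00, those at 20 to 50 RPKM 0.918, those at 50 to 100 RPKM 0.852 and those above 100 RPKM 0.832 (0.803 to 0.867, 905 windows).

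The sums, which use no minimum level, went the same way. In the 35562 windows with no read in hrde-1, the summed RPKM was 1.64 times that of WT (1.61 to 1.67), and in those above 100 RPKM it was 0.869 times WT (0.863 to 0.876). The low end of the genome therefore held more of the met-2 set-25 reads and the highly transcribed end fewer.

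**Figure D3:**
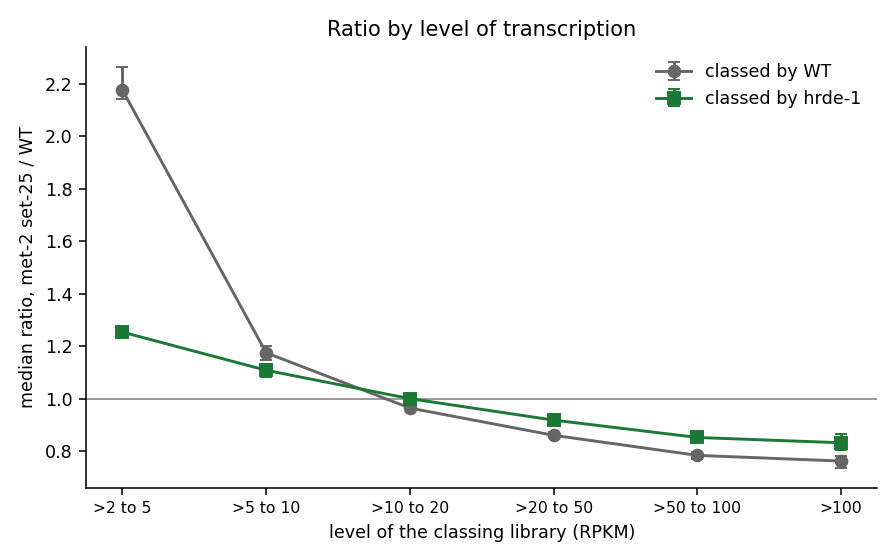
Median ratio of met-2 set-25 to WT (vertical axis) by level of transcription in RPKM (horizontal axis), with windows classed by WT (circles) or by the hrde-1 library (squares) and bars for the exact binomial interval over windows. Classed by hrde-1, the ratio goes from 1.25 at 2 to 5 RPKM to 0.832 above 100 RPKM.

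Among chromosomes, X stood apart. Its median ratio was 1.08 (1.08 to 1.12) over 4042 tested windows, against 1.00 (1.00 to 1.01) over 32879 on the autosomes. The medians of I, II and III were 0.983 each, that of IV was 1.02 and that of V 1.05. On X, 15.5% of callable windows were higher, about 2 times the background of 7.29%, and 9.67% were lower. That background was not matched for level. The tested windows of X had a median of 10.0 RPKM in WT, against 15.5 on the autosomes. The lowest share of higher windows was 5.45%, on III. X made up 6.67% of callable windows, 14.1% of those called higher and 8.37% of those called lower.

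In the worm, X is depleted of genes expressed in the germline and rich in genes expressed in somatic tissues. Its windows were distributed differently over the tiers, with 5.93% of X and 27.7% of autosomal windows in tier 7. Within tiers 3, 5 and 6 the medians of X and the autosomes were close, at 0.915 and 0.907, 1.13 and 1.15, and 1.14 and 1.12. In tier 4 X was the lower, at 0.964 against 1.02. The medians were furthest apart in tier 7, where X had 1.24 (1.15 to 1.31, 272 windows) and the autosomes 0.959 (0.952 to 0.966, 18072 windows), and 31.0% of callable X windows of that tier were higher, against 4.24% on the autosomes. These were 13 of the 168 higher windows of X, while tiers 5 and 6 held 57 and 63. In tier 6 the share of higher windows was also larger on X, at 22.7% against 10.97%, and so was the summed ratio, at 1.22 (1.20 to 1.24) against 1.07 (1.06 to 1.08). The shares of higher windows in tiers 6 and 7 were not matched for level. In tier 2 the medians were 0.835 (0.749 to 1.28) on X, from 38 windows, and 0.6997 (0.671 to 0.758) on the autosomes.

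At matched level X was no different from the autosomes among windows of 5 to 10 RPKM, with a median of 1.15 in both. X had 1.08 against 1.03 at 10 to 20 RPKM, 1.01 against 0.937 at 20 to 50 RPKM and 0.959 (0.859 to 1.09) against 0.867 at 50 RPKM and over. X thus stood above the autosomes at 10 RPKM and over, though at 50 RPKM and over the intervals overlapped.

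**Figure D4:**
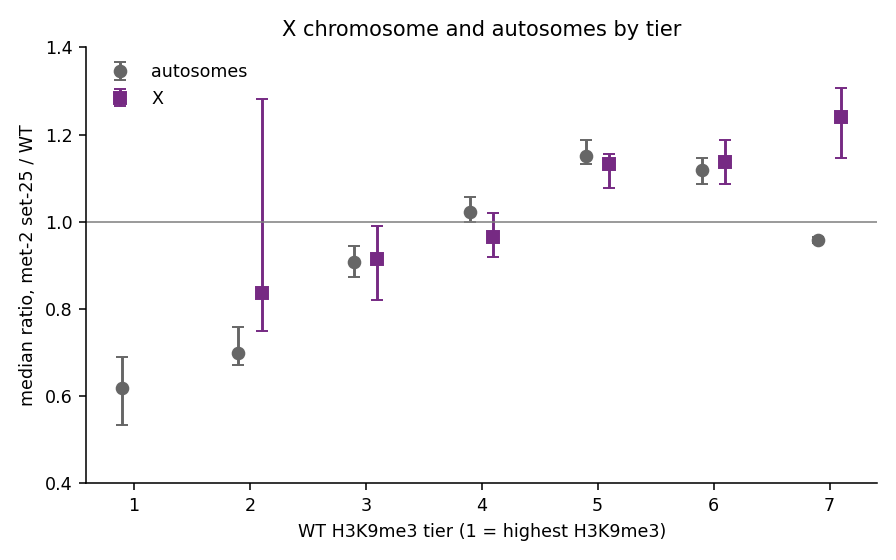
Median ratio of met-2 set-25 to WT (vertical axis) by WT H3K9me3 tier (horizontal axis, tier 1 highest) on X (squares) and on the autosomes (circles), with exact binomial intervals over windows. X tier 1, with 1 tested window, is not shown. The medians are furthest apart in tier 7, with 1.24 on X and 0.959 on the autosomes.

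Tiers 1 to 3 were below tiers 4 to 7 on every chromosome, but by unequal amounts. On II the medians were 0.699 (0.661 to 0.757) and 1.00, and on III 0.788 (0.755 to 0.848) and 0.983. On X they were 0.901 and 1.09, on IV 0.888 and 1.03, and on V 0.889 and 1.06. I had the smallest distance, with 0.938 (0.889 to 1.00) and 0.983. Without the 2 longest lower runs, the values of tiers 1 to 3 were 0.726 (0.690 to 0.820) on II and 0.800 (0.767 to 0.862) on III. In tier 2 alone the lowest chromosome was II, with 0.518 (0.379 to 0.651) over 63 windows. Tier 1 had most of its tested windows on V, where 36 windows had 0.571 (0.459 to 0.636).

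Position along the autosomes made little difference. C. elegans autosomes have gene-dense centres and arms richer in repeats and H3K9 methylation. The left arms (the outer 30%) had a median of 0.993, the centres 1.01 and the right arms 1.00. X was less even, with 1.03 in its left part, 1.12 in its centre and 1.13 in its right part, and the summed RPKM of the left part was 0.928 times WT (0.913 to 0.944) while that of the right part was 1.20 times WT (1.18 to 1.22). In 10 equal parts of each chromosome the medians lay between 0.90, in part 4 of III, and 1.23, in part 5 of X.

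Most called windows stood alone. The 1188 higher windows formed 933 runs, 757 of them of 1 window, and the 1255 lower windows formed 955 runs, 773 of them of 1 window, with a gap of 1 uncalled window bridged. Lower runs reached further. There were 14 lower runs with 5 or more called windows and 8 such higher runs. With bridged gaps counted, the longest lower run spanned 18 kb and the longest higher run 7 kb. The windows could not be assigned to genes, since no ce6 annotation was used here, and they are named by position.

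The longest lower run, II 1932001 to 1950000, lay in strong H3K9me3. All of its 18 windows lay in tiers 2 and 3 and were marked as having lost H3K9me3 in both replicates, and 16 were called. It had a mean of 42.4 RPKM in WT and 9.17 in met-2 set-25, a ratio of 0.216 (0.176 to 0.265). It had 64.6 RPKM in hrde-1, 19.2 in set-32 and 7.66 in the triple mutant, so both strains without MET-2 and SET-25 were the lowest of the 5, and set-32 was below WT. Within the run, WT windows ranged from 4.07 to 65.7 RPKM and met-2 set-25 windows from 1.49 to 25.4 RPKM. Only 8 of its 18 windows held whole reads in both libraries, so part of its reads match several places in the genome.

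The next run, III 6563001 to 6576000, was in tiers 3 to 5 with no window marked in both replicates. It had 101 RPKM in WT, 12.6 in met-2 set-25, 101 in hrde-1, 98.4 in set-32 and 26.3 in the triple mutant. None of its 13 windows held whole reads in both libraries, so its reads match several places in the genome and the run is not resolved from other copies.

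The other lower runs with windows in tiers 1 to 3 were shorter. IV 2487001 to 2493000, in tiers 2 and 3 with 4 of 6 windows marked, had 36.0 RPKM in WT, 9.70 in met-2 set-25, 22.3 in hrde-1, 27.2 in set-32 and 9.78 in the triple mutant, a ratio of 0.269 (0.187 to 0.379). V 17138001 to 17145000, in tiers 1 and 2 with all 7 windows marked, had 32.2 RPKM in WT, 13.9 in met-2 set-25, 38.2 in set-32 and 9.26 in the triple mutant. This run was nearly silent in hrde-1, with 1.47 RPKM. III 689001 to 696000, in tiers 3 and 4 with none marked, had 48.7 RPKM in WT, 18.6 in met-2 set-25, 33.3 in hrde-1, 17.8 in set-32 and 9.70 in the triple mutant. In this last run 4 of 7 windows held whole reads in both libraries.

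The other 7 of the 12 longest lower runs lay in tiers 4 to 7, with no window marked. The longest of these, I 1549001 to 1560000, had 50.5 RPKM in WT, 22.2 in met-2 set-25, 39.8 in hrde-1, 31.1 in set-32 and 20.9 in the triple mutant (ratio 0.439, 0.366 to 0.521). X 160001 to 166000 had 28.1 RPKM in WT and 9.58 in met-2 set-25, with 2.97 in hrde-1, 13.1 in set-32 and 10.8 in the triple mutant. In that run the hrde-1 library was below both strains without the methyltransferases, and WT was the highest of the 5. The remaining 5 runs, I 6370001 to 6378000, I 9939001 to 9946000, III 13411001 to 13418000, V 4489001 to 4495000 and II 10830001 to 10836000, had ratios from 0.353 to 0.447. In that order, the ratio of hrde-1 to WT was 0.572, 0.645, 1.18, 0.693 and 0.769. The set-32 means were 17.5, 16.7, 10.5, 22.8 and 27.3 RPKM as deposited, against 32.6, 38.2, 34.3, 53.5 and 39.7 in WT. Levels below WT in these runs were thus not confined to strains without MET-2 and SET-25. Whole reads in both libraries were held by 2 of 11 windows of I 1549001 to 1560000 and 1 of 6 of X 160001 to 166000. The shares were 2 of 7 in III 13411001 to 13418000 and 2 of 6 in II 10830001 to 10836000. Part of the reads of these 4 runs therefore match several places.

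**Figure D5:**
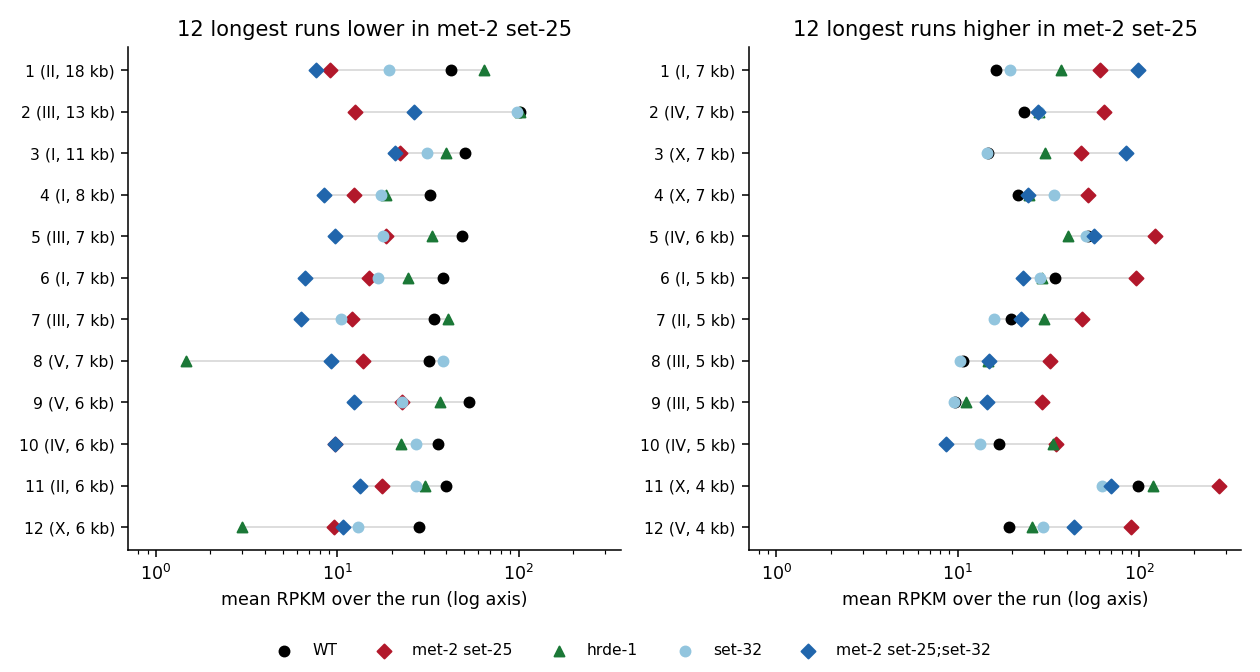
Mean RPKM (horizontal log axis) of the 12 longest runs called lower (left) and higher (right) in met-2 set-25, 1 line per run with its chromosome and length in kb, and 1 symbol per library. In the lower runs the symbols of both strains without MET-2 and SET-25 (diamonds) lie to the left of WT, and hrde-1 is the lowest in the runs where it is at 1.47 and 2.97 RPKM.

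The longest higher runs lay outside strong H3K9me3. None of the windows in the 12 longest was marked as having lost the mark in both replicates, and 2 of them, both in IV 16167001 to 16173000, were in tier 3. I 7260001 to 7267000 had 16.3 RPKM in WT, 60.5 in met-2 set-25, 37.3 in hrde-1, 19.5 in set-32 and 98.4 in the triple mutant. X 12468001 to 12475000 was much the same, with 14.7, 47.8, 30.1, 14.5 and 84.3 RPKM in that order of libraries. In these 2 runs both strains without MET-2 and SET-25 had the most RNA, and hrde-1 was between them and WT.

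Other higher runs had their highest level, as deposited, in the double mutant library. IV 16167001 to 16173000 had 52.3 RPKM in WT, 122 in met-2 set-25 (ratio 2.34, 2.04 to 2.69), 40.8 in hrde-1, 50.7 in set-32 and 56.4 in the triple mutant. Only 2 of its 6 windows held whole reads in both libraries. I 7657001 to 7662000 had 34.3 RPKM in WT, 96.7 in met-2 set-25, 29.2 in hrde-1, 28.4 in set-32 and 22.9 in the triple mutant. X 6533001 to 6537000, the most transcribed of the 12, had 98.3 RPKM in WT, 275 in met-2 set-25, 119 in hrde-1, 62.4 in set-32 and 70.3 in the triple mutant. The ratios of the triple mutant to set-32 at these 3 runs were 1.11 (0.863 to 1.42), 0.805 (0.529 to 1.20) and 1.13 (0.854 to 1.48), beside 0.833 at the median window of that comparison, which the interval of I 7657001 to 7662000 took in and those of the other 2 runs lay above.

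V 19609001 to 19613000 had the largest ratio of the 12 runs, 4.71 (3.66 to 6.12), with 19.2 RPKM in WT, 90.3 in met-2 set-25, 25.8 in hrde-1, 29.6 in set-32 and 44.0 in the triple mutant. The shorter runs on II, III and IV, of 5 kb each, had ratios from 2.08 (IV 9757001 to 9762000) to 3.04 (III 5760001 to 5765000). At IV 9757001 to 9762000 the hrde-1 library was as high as met-2 set-25, with 33.3 and 34.9 RPKM against 16.8 in WT.

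Single windows with the largest differences in RPKM included a pair inside the run X 6533001 to 6537000. V 19201001 to 19202000, in tier 3, had 214 RPKM in WT, 524 in met-2 set-25, 336 in hrde-1, 228 in set-32 and 877 in the triple mutant. I 6499001 to 6500000 had 96.2 RPKM in WT, 286 in met-2 set-25 and 242 in hrde-1, so hrde-1 was high there as well. Among the lower ones, the largest difference was at II 10934001 to 10935000, in tier 4, with 510 RPKM in WT, 31.3 in met-2 set-25, 774 in hrde-1, 670 in set-32 and 374 in the triple mutant. Its level was thus far below the rest in the double mutant library alone. The next 4 were windows of 1 kb on X that start at 3562001, 3571001, 7728001 and 7730001, all in tier 4. They had nearly equal values, for example 576 RPKM in WT, 240 in met-2 set-25, 555 in hrde-1, 544 in set-32 and 246 in the triple mutant at X 7728001 to 7729000. Their ratios were 0.416 to 0.482, and these windows were low in both strains without MET-2 and SET-25. None held whole reads in both libraries, so their reads match several places, and the 4 windows are not independent of each other.

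Of the 532 callable windows that lost H3K9me3 in both replicates, outside the rRNA genes, 109 (20.5%) were called lower and 25 (4.70%) higher. Of all callable windows 7.7% were lower and 7.29% higher, and these shares were not matched for level. The lower window with the most RNA in WT was II 14322001 to 14323000, in tier 3, with 331 RPKM in WT, 132 in met-2 set-25, 196 in hrde-1, 227 in set-32 and 172 in the triple mutant. V 1204001 to 1206000, in tiers 2 and 3, had 305 RPKM in WT and 142 in met-2 set-25, a ratio of 0.465 (0.393 to 0.547), beside 168 in hrde-1, 176 in set-32 and 119 in the triple mutant. In both regions every mutant was below WT. II 2291001 to 2292000 was different, since it was low only where MET-2 and SET-25 were absent, with 93.0 RPKM in WT, 25.4 in met-2 set-25, 83.99 in hrde-1, 84.5 in set-32 and 18.5 in the triple mutant.

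Of the higher windows among those that lost the mark, the 8 with the largest met-2 set-25 values had ratios from 2.16 to 4.36. The largest met-2 set-25 value was at I 11766001 to 11767000, with 125 RPKM against 57.5 in WT (ratio 2.18, 1.56 to 3.07), and it had 69.2 RPKM in hrde-1, 93.4 in set-32 and 98.8 in the triple mutant. II 1142001 to 1143000 had 31.0 RPKM in WT, 83.6 in met-2 set-25, 26.5 in hrde-1, 34.1 in set-32 and 37.1 in the triple mutant. V 20157001 to 20158000 had 16.4 RPKM in WT, 71.6 in met-2 set-25, 38.3 in hrde-1, 21.6 in set-32 and 3.09, which is 1 read, in the triple mutant. The ratio of the triple mutant to set-32 was 1.06 (0.659 to 1.67) at the first of these windows and 1.09 (0.481 to 2.36) at the next, and both intervals took in the 0.833 of the median window.

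The gene oma-1, which encodes a germline RNA-binding zinc finger protein, was the target of the study's dsRNA experiments, here in animals without that treatment. It was placed by the trigger coordinates of the study, IV 8889833 to 8890353. The pair of windows there had 87.6 and 100 RPKM in WT, 70.2 and 62.7 in met-2 set-25, 67.8 and 70.7 in hrde-1, 32.3 and 48.5 in set-32 and 18.5 and 9.26 in the triple mutant. Both lay in tier 7 and neither was called, and their joint ratio in met-2 set-25 was 0.707 (0.545 to 0.911). The larger rRNA shares of set-32 and the triple mutant lower the deposited values of those libraries here too.

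The triple mutant against set-32 gives the same loss of MET-2 and SET-25 in animals that all lack SET-32, and it shares no library with met-2 set-25 against WT. Its libraries are shallow, and its median over all tested windows was 0.833 (0.815 to 0.863). The rRNA gene windows took 28.2% of the RPKM in set-32 and 37.8% in the triple mutant, which lowers the deposited ratio at the other windows. Values of this comparison are therefore read against the median of 0.833. Tiers 1 and 2 again had the lowest medians, 0.629 (0.467 to 0.729) and 0.582 (0.509 to 0.693). Tier 3 had 0.792, tier 4 0.871, tier 5 0.936, tier 6 0.877 and tier 7 0.756. X had 0.988 and the autosomes ranged from 0.786 on I to 0.863 on IV. In the sums X did not stand above the autosomes. The ratio of summed RPKM outside the rRNA genes was 0.853 (0.839 to 0.867) on X and 0.867 (0.862 to 0.872) on the autosomes.

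Windows called in met-2 set-25 tended to lie on the same side in this comparison. Over the windows called higher the median ratio of the triple mutant to set-32 was 1.14 (1.12 to 1.21), over those called lower it was 0.598 (0.572 to 0.619), and over all windows callable in met-2 set-25 against WT it was 0.743. The ratio of the triple mutant to set-32 itself ran with WT level. Its median was 1.03 at 5 to 10 RPKM in WT, 0.871 at 10 to 20 and 0.731 at 20 to 50. The windows called higher had a WT median of 10.9 RPKM and those called lower 32.8. Of the 375 higher windows that could be called in the set-32 background, 126 (33.6%) were higher and 32 (8.53%) lower, where the background of that comparison was 8.04% higher and 27.1% lower. Of the 562 lower windows, 12 (2.14%) were higher and 261 (46.4%) lower. All windows called higher had medians of 10.78 RPKM in set-32 and 12.35 in the triple mutant. For those called lower the medians were 17.97 and 9.56 RPKM. Many could therefore be called here only through the library where they were high. Neither the medians nor the shares were matched for level, so they are a description and are not used as support. Each of the 12 longest lower runs had a ratio below 1. The ratios ran from 0.242 at V 17138001 to 17145000 to 0.826 at X 160001 to 166000. The median of all windows was itself 0.833, and the interval of that last run took it in. So did those of I 1549001 to 1560000, III 689001 to 696000, III 13411001 to 13418000 and V 4489001 to 4495000. Of the 12 longest higher runs, IV 13388001 to 13395000 had 0.993 and X 1484001 to 1491000 had 0.711. I 7657001 to 7662000 had 0.805 and IV 9757001 to 9762000 had 0.650. The other higher runs had 1.11 to 5.81.

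A smaller set of windows separated both strains without MET-2 and SET-25 from all the others. After scaling to the total outside the rRNA genes, 77 of 9158 windows (0.841%) with at least 20 RPKM in WT, hrde-1 and set-32 were at 0.5 times each of these or less in both strains. Of these 77, 35.1% lay in tiers 1 to 3, against 4.72% of the 9158, and 28.6% were marked in both replicates, against 3.70%. II held 29.9% of them, against 17.9% of the 9158, and X 2.60%, against 4.83%. In the other direction, 83 of 9358 windows (0.887%) were at least 2 times each other library in both strains. Of these 83, 4.82% lay in tiers 1 to 3, against 4.23% of the 9358, and 2.41% were marked, against 3.30%. X held 19.3% of them, against 6.27%. In each direction the minimum of 20 RPKM was set on the group that had to be high, so windows entered through that group. The shares were not matched for level. Windows of both sets rest in part on few reads in the triple mutant, where 1 read is 3.09 RPKM and 20 RPKM is 6.5 reads. Among the 83 higher windows, X 1503001 to 1504000, for example, had 12.35 RPKM there as deposited and 1.80 in set-32. Among the 77 lower windows, I 4629001 to 4630000 had 3.09 RPKM in the triple mutant and 32.3 in set-32.

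Several of these lower windows were neighbours. I 2628001 to 2633000, with 3 of 5 windows set apart and 3 marked, had 27.3 RPKM in WT, 12.1 in met-2 set-25, 31.4 in hrde-1, 27.1 in set-32 and 4.74 in the triple mutant. V 5183001 to 5186000, in tiers 1 and 2 with all 3 windows marked, had 38.6 RPKM in WT, 8.95 in met-2 set-25, 30.5 in set-32 and 4.12 in the triple mutant, while hrde-1 had 259.6. II 5098001 to 5100000, in tier 4 and not marked, had 60.6 RPKM in WT, 18.7 in met-2 set-25, 51.6 in hrde-1, 67.4 in set-32 and 6.17 in the triple mutant. These neighbours thus included windows with and without the loss mark.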

How the data were processed

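Pre-mRNA-seq libraries of 5 genotypes, 1 each, were used, with met-2 set-25 against WT as the comparison and the triple mutant against set-32 beside it. The authors aligned reads to WS190 (ce6) with Bowtie 0.12.7, kept perfect alignments, counted a read with N matches as 1/N at each, and deposited RPKM per 1 kb window, scaled by depth. The deposited tier column is a score with no definition in those sources. Columns of the authors' own comparisons (GRTS, GRH, misannotated windows, loss of H3K9me3 in each of 2 replicates per strain) served as labels of windows. Each value column carries a library code, which the study's library list ties to a genotype, and the strain code of the loss marks was read as met-2 set-25 from the number of windows marked.

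Depth came from the smallest steps, with 1 read at 0.912 RPKM for WT, 1.49 in met-2 set-25, 1.47 in hrde-1, 1.80 in set-32 and 3.09 in the triple mutant, and 78.8% to 80.6% of positive values were whole within 0.02 read. No count test was run, with 1 library a group. Medians used log2 ratios after 1 RPKM was added, for windows whose mean reached 5 RPKM, and the pseudocount understates changes of low windows. Intervals of sums are exact Clopper-Pearson intervals (95%) on rounded reads and cover only counting error (PCR copies of a molecule are not independent). The scripts were tested on simulated data.

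Windows were named by rule: the 12 longest runs in each direction, the 5 single windows with the largest difference in RPKM in each direction outside the rRNA genes, up to 8 windows in each direction that lost H3K9me3, the extreme ratio in each direction per chromosome, and oma-1. Those extremes rest on few reads and are given in part. The members and lists were chosen with earlier results of these data known. The windows set apart in both strains, the scaling to all windows above 0, the settings of the set-32 background comparison and the omission of the 2 longest lower runs were chosen after seeing the data. Other settings tried were pseudocounts, minimum levels, other ratios, scalings, whole reads, hrde-1 as the reference and a split of arms at 20%. Python 3.11.15, numpy 2.4.6, pandas 2.3.3, scipy 1.17.1 and matplotlib 3.10.9 were used.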

Additional observations from a re-analysis of the deposited data

Results flagged for a closer look

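The run X 1484001 to 1491000 had ratios on opposite sides of 1 in the strains with and without SET-32. It was higher in met-2 set-25 than in WT, at 52.2 against 21.4 RPKM (ratio 2.44, counting interval 1.998 to 2.998), and lower in the triple mutant than in set-32, at 24.3 against 34.1 RPKM (ratio 0.711, 0.509 to 0.980), with 24.6 RPKM in hrde-1. The interval of the latter ratio took in 0.833, the median of that comparison over all tested windows, so against that median no direction is shown. The difference between these ratios was not tested.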

How the results depend on the processing

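No paired analysis was possible because each genotype has 1 library. For the same reason no library could be left out within a group, and depth limits windows under 20 RPKM most. The medians of tiers 1 and 2 stayed below 1 in 10 of 10 alternatives (0.539 to 0.661 and 0.482 to 0.935), and that of tier 3 in 9 of 10 (0.841 to 1.00). The cause of the changes listed here was not tested, except that they follow from each setting where it keeps fewer windows.

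The median of tiers 1 to 3 over that of tiers 4 to 7 was 0.832, that of windows marked in both replicates over unmarked ones 0.813, that of WT levels above 50 RPKM over 5 to 10 RPKM 0.661, that of X over the autosomes 1.08, that of arms over centres 0.992, and the median of all windows 1.01. With a pseudocount of 5 RPKM the first 3 were 0.873, 0.850 and 0.705. With means from 2 RPKM up they were 0.807, 0.778 and 0.725 and the median of all windows 1.06. With means from 20 RPKM up they were 0.896, 0.891 and 0.183, arms over centres 0.966 and the median of all windows 0.925. The 0.183 follows from the setting and says nothing about level. A window at 5 to 10 RPKM in WT reaches a mean of 20 RPKM only where met-2 set-25 is far higher. With no minimum, where most windows are at or near 0, tiers, marks, X and all windows each gave 1 and WT levels 0.725. With hrde-1 as the reference in place of WT, the values in that order were 0.697, 0.682, 0.780, 1.15, 1.06 and 1.08. The tier value was 0.881 with whole reads only and 0.860 without GRTS and GRH windows. The level value was 0.764 with classes by hrde-1, 0.759 with classes by the mean, and 0.641 after scaling to all windows above 0. The median of all windows was 0.995 after the trimmed-mean scaling over windows from 5 RPKM up and 0.897 after scaling to all windows above 0.

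The summed ratio of tiers 1 to 3 (0.869) was 0.855 after the trimmed-mean scaling, 0.971 with whole reads, 0.654 against hrde-1 and 0.893 without the 2 longest lower runs. That of X (1.06) was 1.05 after the trimmed-mean scaling and 1.15 with whole reads. That of windows marked in both replicates (0.840) was 0.901 with whole reads, 0.628 against hrde-1, 0.855 without the 2 longest lower runs and 1.07 with the rRNA gene windows. In the set-32 background, the median over windows called higher relative to all callable ones (1.53) was 1.42 with a pseudocount of 5 RPKM and 1.95 with means from 20 RPKM up, and that over windows called lower (0.804) was 0.841 with a pseudocount of 5 RPKM. None of these was matched for level.

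The counts of higher and lower windows (1188 and 1255) were 3436 and 2481 at a minimum of 10 RPKM, 209 and 332 at 50 RPKM, 17149 and 7447 with no minimum, 2820 and 3716 with a ratio of 1.5, 138 and 93 with a ratio of 4, and 650 and 1969 after scaling to all windows above 0. With a pseudocount of 5 RPKM, 784 were lower.

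Some values near 1 changed side. With means from 2 RPKM up the medians of I and III were 1.02 each. With means from 20 RPKM up they were 0.936 on IV, 0.968 on V and 0.996 on X, 0.928 in unmarked windows and 0.989 in tier 6. Against hrde-1 they were 1.07 on I, 1.06 on III and 1.02 in tier 7, and the summed ratios were 1.03 on I, 1.04 on II, 1.04 on III, 1.00 on IV and 1.03 in tier 7. With whole reads the summed ratio of tier 3 was 1.03. Of the values for single tiers, chromosomes and marks, 106 stayed within their error, 75 moved by more and 16 changed side. For the main results, 55 stayed within their error, 52 moved by more and 4 changed side. Error is here the interval over windows or of counting, or a fixed factor for the counts of called windows. It is not a spread between replicates.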
